A study of Mus musculus with 2 samples.

Results

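The genes described here encode the proteins that choose and cut introns: the SR and hnRNP proteins, the SF3A and SF3B subunits, and the Sm, Lsm and particle-specific proteins of the small nuclear ribonucleoproteins (snRNPs). They were the genes whose symbols begin with Srsf, Hnrnp, Sf3a, Sf3b, Snrp, Snrnp or Lsm and that had a probe set annotated with that symbol alone, 66 of 18193 genes in all. Where a gene had several such probe sets, the one brightest on average over both arrays (in log2 signal) represents it. The study profiled total RNA of the ventral prostate, the secretory lobe of the mouse gland that depends on androgen, from male C57BL/6J mice aged 3 months. A wild-type sample (U19/Eaf2 +/+) was set beside a sample labelled as a U19/Eaf2 knockout (U19/Eaf2 -/-), with 1 sample and 1 array in each group, so no test was possible and every difference describes these 2 arrays. U19/Eaf2 is an androgen-induced partner of the ELL elongation factors of RNA polymerase II, and the comparison asked which transcripts differ when it is lost. The labels do not name the part of the gene that was removed or say whether prostates of several mice were pooled.

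Introns are removed by the spliceosome, which assembles on each transcript from snRNPs while RNA polymerase II is still at work. SR proteins bind exons and recruit the machinery, hnRNP proteins coat nascent RNA and often block splice sites, and SF3A and SF3B hold the U2 snRNP at the branch point. Sm proteins form a ring around most spliceosomal RNAs, while a related ring of Lsm proteins sits on U6 RNA in the nucleus or guides mRNA decay in the cytoplasm. The balance between SR and hnRNP proteins is known to set which exons a cell includes, in epithelium of the prostate as in other tissues.

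The 2 genes that read highest on the array labelled knockout relative to wild type were Hnrnpl and Hnrnpm, and the 2 that read lowest were Lsm7 and Lsm2. The 250 bases before the annotated start of each are shown because these genes led the list in the 2 directions. They come from the RefSeq promoter table of build GRCm38.p6, which held 57 of the 66 genes, and run 5′ to 3′ on the strand of the gene. The Hnrnpl start is the only one listed for that gene and lies inside its annotated span, whereas the other 3 starts lie at the outer end of the gene. Capitals mark every match, on either strand, to GGGCGG (the SP and KLF box), CCAAT (the box bound by NF-Y), CACGTG (the E-box), CCGGAA (the core of ETS sites), TCGCGA or TATAAA (the TATA box), and none of these strings contains another.
Hnrnpl, chr7:28810640-28810889, plus strand: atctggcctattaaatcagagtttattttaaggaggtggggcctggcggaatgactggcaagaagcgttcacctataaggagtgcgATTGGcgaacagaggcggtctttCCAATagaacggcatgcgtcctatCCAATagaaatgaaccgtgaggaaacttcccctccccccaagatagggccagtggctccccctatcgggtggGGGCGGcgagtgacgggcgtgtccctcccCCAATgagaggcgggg
Hnrnpm, chr17:33685459-33685708, minus strand: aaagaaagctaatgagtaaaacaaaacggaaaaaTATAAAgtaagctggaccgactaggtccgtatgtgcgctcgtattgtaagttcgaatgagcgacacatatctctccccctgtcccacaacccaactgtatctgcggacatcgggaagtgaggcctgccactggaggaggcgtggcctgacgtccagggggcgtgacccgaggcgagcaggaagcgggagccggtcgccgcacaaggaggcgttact
Lsm7, chr10:80855210-80855459, minus strand: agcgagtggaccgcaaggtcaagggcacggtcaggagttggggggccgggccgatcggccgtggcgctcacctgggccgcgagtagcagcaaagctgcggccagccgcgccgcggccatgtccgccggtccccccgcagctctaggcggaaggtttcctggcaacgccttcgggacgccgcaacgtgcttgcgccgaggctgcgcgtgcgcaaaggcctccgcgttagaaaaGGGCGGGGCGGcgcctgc
Lsm2, chr17:34981604-34981853, plus strand: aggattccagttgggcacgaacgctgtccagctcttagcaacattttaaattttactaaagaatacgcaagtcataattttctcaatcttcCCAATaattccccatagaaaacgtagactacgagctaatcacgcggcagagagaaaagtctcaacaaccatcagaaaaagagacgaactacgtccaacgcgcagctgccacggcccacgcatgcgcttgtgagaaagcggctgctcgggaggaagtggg

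The windows of the higher pair shared none of these motifs, nor did those of the lower pair. Hnrnpl held 4 CCAAT matches and 1 GGGCGG match, and Hnrnpm held 1 TATAAA match and 0 of the other strings. Lsm7 held 2 GGGCGG matches that overlap at its downstream end and was 72.4% G or C, against 47.6% for Lsm2, which held 1 CCAAT match. Over the 57 genes with a listed promoter, GGGCGG was found in 38 (66.7%) against 32.7% of all 27025 genes in the table, and CCGGAA in 23 (40.4%) against 12.3%. CCAAT was found in 24 of 57 (42.1%, against 34.5% of all), TCGCGA in 6 (10.5%, against 2.11%), TATAAA in 5 (8.77%, against 13.0%) and CACGTG in 1 (1.75%, against 5.98%). The median window of these genes was 59.6% G or C with 19 CpG dinucleotides, against 52% and 6 over all genes, and the table of all genes also holds non-coding genes. Among hnRNP genes CCAAT stood in 11 of 17 windows and CCGGAA in 5 of 17, and among Lsm genes they stood in 3 of 9 and 0 of 9. A match is a string of letters, not a measured binding site.

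Signals are linear values in arbitrary units, scaled by array, and a log2 ratio here compares the array labelled knockout with the wild-type array, and is above 0 where the former read higher. A floor at the median of all non-control signals, 166, stood in for detection calls, and lower signals were raised to it. Of the 66 genes 64 reached the floor on at least 1 array, and 63 did so on both. The 2 that did not were Srsf12, at 26.2 in wild type and 41.6 in the other sample, and Snrpn, the Sm protein made mainly in neurons. Snrpn read 49.7 and 33.7 in its only probe set with a single symbol. Some probe sets annotated with Snrpn and a further symbol, which entered no count, did reach the floor. The 64 genes ranged in signal from 163 to 21370, and all counts below are over these 64.

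On the array labelled knockout 9 of the 64 genes were 1.5-fold higher or more (14.1%, against 4.69% of all 11671 genes above the floor) and 4 were 1.5-fold lower or more (6.25%, against 6.26% of all genes). Without probe sets suffixed _s_at, _x_at or _a_at, which left 54 of these genes, the counts were equal, 6 higher and 6 lower, beside 4.28% and 6.86% of all genes. Only Hnrnpl was at least 2-fold higher, where 0.591% of all genes were, and Lsm7 and Lsm2 were at least 2-fold lower, where 0.883% of all genes were. Above 0 lay 42 genes, or 65.6%, against 47.0% of all genes, and below 0 lay 22, or 34.4%, against 53.0%. The median log2 ratio of the 64 genes was 0.12 against -0.03. Signal level moved with this measure. Among the 2159 genes at or above the median signal of these genes, 2011, the median was 0.09 and 61.7% lay above 0. Of those brighter genes 5.23% were past 1.5-fold as higher and 1.76% as lower. Of the 9512 dimmer genes above the floor 4.56% were past it as higher and 7.29% as lower. After a loess correction on signal level the median of the 64 genes was 0.08. The log2 ratios of the 64 genes had an SD of 0.46, against 0.37 for all genes and 0.32 for those 2159 brighter genes.

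**Figure D1:**
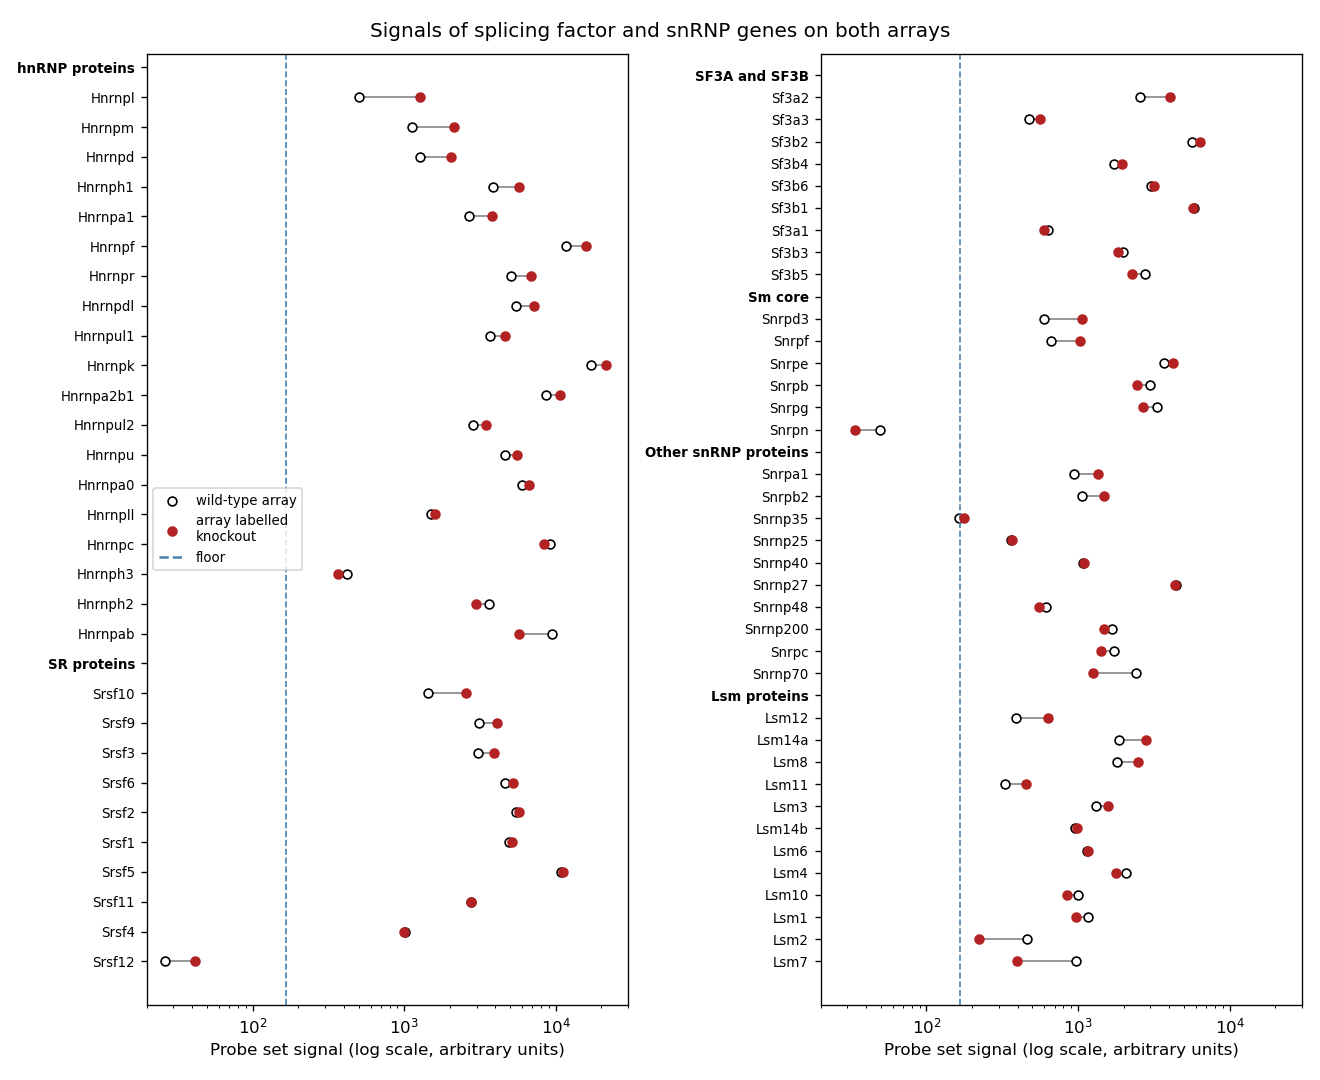
Signals of the 66 genes in the wild-type sample (open circles) and in the sample labelled knockout (red), on a log scale in arbitrary units, by role group and in order of log2 ratio, with the floor of 166 dashed. In the hnRNP group 15 of 19 red points lie to the right of the open ones, Lsm7 and Lsm2 show the widest gaps to the left, and Srsf12 and Snrpn lie below the floor on both arrays.

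Relative to wild type, the hnRNP genes had the highest median of the 6 role groups, though the Sm genes stood above them without suffixed probe sets (0.64 against 0.15) and with each gene's probe set closest to 0 (0.18 against 0.09). Of 19 genes 15 read higher and 4 lower, with a median log2 ratio of 0.32, or 1.25-fold, against 0.09 for the 736 genes at or above the group's median signal of 4692, of which 61.0% lay above 0. Hnrnpl, which binds CA-rich RNA and steers exon choice, read 504 in wild type and 1278 on the other array, 2.54-fold higher. Hnrnpm, a binder of GU-rich intron sequence, read 1129 and 2126, 1.88-fold higher. Each of these 2 genes had a single probe set above the floor, so no other probe set could be set beside it. Hnrnpl remained at least 2-fold higher under all 10 other ways of processing the signals, with log2 ratios of 1.26 to 1.37. Moving or removing the floor and the choices of probe set could not alter its value, so they were no check on it.

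The hnRNP genes below them were supported unevenly by their other probe sets. Hnrnpd, the AU-rich element binding protein AUF1 that acts in mRNA turnover, read 1276 and 2033, a log2 ratio of 0.67, but its other probe set had -0.38. Hnrnph1, a binder of G runs, read 3834 and 5742 (0.58), just short of 1.5-fold, with 0.02 in its other probe set. Hnrnpa1, the classic antagonist of SR proteins at exonic silencers, read 2692 and 3821, a log2 ratio of 0.51, with 0.20 in its other probe set. Both of its probe sets were higher on the array labelled knockout, and 1 of them is of the _x_at kind, which can also match related sequences.

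Several abundant hnRNP genes were higher in all or most of their probe sets, by less than 1.5-fold. Hnrnpf, another binder of G runs, read 11610 and 15724, a log2 ratio of 0.44, and its other 3 probe sets had 0.14 to 0.32. Hnrnpa2b1, which also takes part in RNA transport, read 8679 and 10648 (0.29), and its other 3 probe sets had 0.14 to 0.48. Hnrnpk, the KH-domain binder of C-rich sequence, read 17135 and 21370 (0.32), with 1 of its 3 other probe sets at -0.07 and the others at 0.09 and 0.30. For Hnrnpr the log2 ratio was 0.43, with 1 of 3 other probe sets at -0.88, and for Hnrnpdl, a relative of Hnrnpd, 0.40, with 2 of 6 others below 0. Hnrnpul2 read 2835 and 3441, a log2 ratio of 0.28, while its other probe set read 726 and 1470 (1.02), and Hnrnpll, known for CD45 splicing in lymphocytes, had 0.09 and 0.67. Hnrnpul1 had 0.33 and Hnrnpa0 0.15, each in 1 probe set.

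Probe sets of Hnrnpu and of Hnrnpab lay on both sides of 0. Hnrnpu, the scaffold attachment factor that binds chromatin and RNA, read 4652 and 5541 (0.25) in the probe set that represents it, 4321 and 5316 in another and 7353 and 2720 (-1.43) in a further one, and its remaining 2 had -0.02 and -0.19. Hnrnpab, a relative of Hnrnpd, read 9426 and 5713 in the probe set that represents it, 1.65-fold lower on the array labelled knockout. Its other probe sets went from -0.85, a bound, to 0.47, and the median over its 7 probe sets was 0.12, so that its direction depended on the probe set. The other lower genes were Hnrnph2 at -0.29, Hnrnph3 at -0.19, and Hnrnpc, which binds runs of U, at 9190.5 and 8359 (-0.14) with -0.34 in its other probe set.

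The SR proteins, which bind exonic enhancers through RNA recognition motifs and recruit the spliceosome through arginine-serine tails, lay closer to 0. Of 9 measured genes 7 read higher and 2 lower, with a median log2 ratio of 0.07. The share of all genes that read higher, 47.0%, stands beside this count and those of the groups below. Srsf10, which can act as a splicing repressor when it is dephosphorylated, was the only gene of the group past 1.5-fold, at 1433 and 2555, 1.78-fold higher. Its other 3 probe sets had -0.15, 0.01 and 0.60, and with the median over its probe sets its log2 ratio was 0.30. Srsf9 read 3102 and 4085 (0.40) in its single probe set, and Srsf3, the smallest of the classic SR proteins, read 3062 and 3890 (0.35). The other 5 Srsf3 probe sets ran from -0.69 to 0.47.

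The remaining SR genes differed little between the arrays in the probe set that represents them. Srsf6 read 4632 and 5231 (0.18) and was the only SR gene whose probe sets, 4 in all, shared a direction, with the others at 0.17 to 0.38. Srsf2, the protein once called SC35, read 5444 and 5707 (0.07), Srsf1, the founding member also named ASF/SF2, 4908 and 5115 (0.06), and Srsf5 10806 and 11163 (0.05). Srsf11 had -0.01 and Srsf4 -0.02. Probe sets on both sides of 0 were seen for Srsf1 (-0.57 to 0.23 in the others), Srsf2 (-0.46 to 0.57) and Srsf11 (-0.40 to 0.34).

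SF3A and SF3B, the U2 snRNP parts that grip the branch point, were near 0 except for 1 subunit. Of 9 genes 5 read higher and 4 lower, with a median of 0.05. Sf3a2 read 2561 and 4057, 1.58-fold higher, though a dimmer one read 300 and 332 (0.15). Sf3a3 had 0.26 with 0.20 in its other probe set, and Sf3a1 had -0.09 with others at -0.06 and 0.01. Sf3b1, the subunit that encloses the branch point adenosine, read 5781 and 5696 (-0.02) in the probe set that represents it, and its other 3 had 0.16 to 0.60.

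The other SF3B genes were all within 1.5-fold in that probe set. Sf3b2 had 0.18, Sf3b4 0.16, Sf3b3 -0.11 and Sf3b5 -0.29, the last with 0.05 in its other probe set. Sf3b6, the small subunit that lies close to the branch point, read 3037 and 3152 (0.05), and a second Sf3b6 probe set read 1006 and 1208 (0.26). One more read 4404 in wild type and 1188 in the other sample (-1.89), the widest difference of any probe set of these genes. The 3 probe sets therefore gave no common direction for Sf3b6.

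The Sm proteins, which form the ring on U1, U2, U4 and U5 RNA, were split. Of 5 measured genes 3 read higher and 2 lower, with a median of 0.18. Snrpd3 read 599 and 1056, 1.76-fold higher, but its other probe sets had 0.18 and -0.48. Snrpf, in its single probe set, read 662 and 1033, 1.56-fold higher, and Snrpe read 3706 and 4201 (0.18). Snrpb, the SmB protein, read 2961 and 2439 (-0.28) and Snrpg 3321 and 2672 (-0.31), both lower in each of their 2 probe sets. Members of the same ring thus read in both directions on the same pair of arrays.

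Among proteins particular to 1 kind of snRNP, 5 of 10 genes read higher and 5 lower, with a median of 0.01. Snrnp70, which binds U1 RNA directly, read 2402 and 1247 in the probe set that represents it, 1.93-fold lower, whereas its other probe set read 1145 and 1257 (0.13). The U1 protein Snrpc read 1724 and 1426 (-0.27). The U2 proteins read the other way: Snrpa1 read 938 and 1344 (0.52), with 0.38 and 0.79 in its other probe sets, and Snrpb2 read 1067 and 1491 (0.48), with 0.09 in its other one. All probe sets of both U2 genes were higher on the array labelled knockout.

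Proteins of U5, of the tri-snRNP and of the minor spliceosome lay near 0. Snrnp200, the helicase that unwinds U4 from U6, read 1675 and 1473 (-0.18), with 0.80 in a probe set that read 223 and 387. Snrnp40 of U5 had 0.02, with 0.20 in its other probe set, and Snrnp27 of the tri-snRNP read 4404 and 4369 (-0.01), with 0.35 in its other one. The minor spliceosome, which removes a rare class of introns, was represented by Snrnp25 at 359 and 367 (0.03), Snrnp48 at 617 and 552 (-0.16) and Snrnp35 at 163 and 176, a bound of 0.08. Snrnp35 lay at the floor, where a signal could not be told from background.

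The Lsm genes spread most widely, with an SD of 0.62 on the log2 scale, and their median was 0.02 with 7 of 12 higher. Lsm7 read 976 and 397, 2.46-fold lower on the array labelled knockout, and Lsm2 read 464 and 223, 2.08-fold lower. Neither had another probe set above the floor. Both belong to the ring that Lsm8 completes on U6 RNA and that Lsm1 completes on decaying mRNA. Lsm7 remained at least 2-fold lower under all 10 other ways of processing the signals. A lower or absent floor and the choices of probe set could not alter its value, so they were no check on it. Lsm2 lay nearer the floor, with a log2 ratio of -0.93 under quantile normalization and a bound of -0.15 with the floor at the 70th percentile.

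The other ring proteins did not share that size of difference. Lsm8, the nuclear-specific subunit, read 1805 and 2473 (0.45), and Lsm3 read 1322 and 1582 (0.26). Lsm6 read 1146 and 1155 (0.01), with its other 3 probe sets at 0.20 to 0.34, the highest of them a bound. Lsm4 read 2060 and 1770 (-0.22). Lsm1, the cytoplasmic-specific subunit, read 1168 and 962 (-0.28). Of the 6 measured nuclear ring genes 3 read higher and 3 lower.

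Of the 5 Lsm genes outside those rings 4 read higher. Lsm12 read 387 and 632, 1.63-fold higher, with 0.20 in its other probe set. Lsm14a, which works in translational repression and P-bodies, read 1855 and 2787, 1.502-fold higher, with 0.33 and 0.36 in its other probe sets, while its relative Lsm14b had 0.04. The U7 snRNP proteins, which act in histone mRNA processing, read in opposite directions, Lsm11 at 332 and 452 (0.45) and Lsm10 at 1002 and 845 (-0.25). Lsm12 and Lsm14a, with Sf3a2, were the 3 genes past 1.5-fold with several probe sets that all shared a direction. With the median over probe sets each of the 3 lay under 1.5-fold, at 0.46, 0.36 and 0.41.

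Other probe sets of the same gene were the only check on a single value that these arrays offered. Of the 13 genes past 1.5-fold, 5 had 1 probe set above the floor, 5 had at least 1 that went the opposite way, and 3 had several that went the same way. In 41 genes more than 1 probe set was above the floor, and these shared a direction in 20 (48.8%), 16 of them higher and 4 lower, against 2203 of 5172 of all such genes (42.6%). Of those 2203, 937 were higher and 1266 lower. The 2 brightest probe sets of a gene had the same sign in 28 of 41 genes here and in 2513 of 4497 of all genes (55.9%). The SD of their difference was 0.58 here and 0.47 over all genes. For a single probe set that is 0.41 and 0.33, larger than most of the log2 ratios given above. With the median over probe sets 4 of the 64 genes were past 1.5-fold as higher, beside 2.75% of all genes, and 2 as lower, beside 5.36%.

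**Figure D2:**
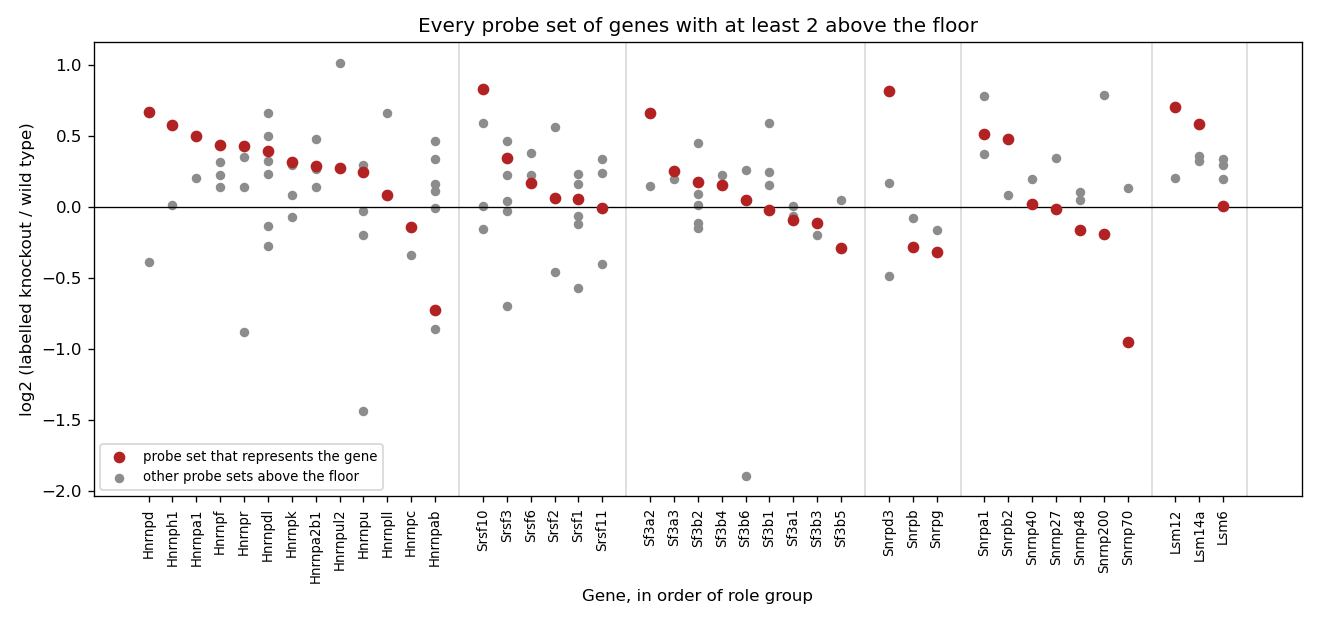
The log2 ratio (labelled knockout over wild type) of every probe set above the floor, for the 41 genes with more than 1, in order of role group, with the probe set that represents the gene in red and the others in grey. Hnrnpf, Hnrnpa2b1, Snrpa1 and Lsm14a lie wholly above 0, while Hnrnpu and Sf3b6 each have a probe set below -1.4 and others above 0.

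Splicing genes outside these families were described through 7 lists by role, with 139 genes, of which 124 had a probe set with a single symbol and 120 were above the floor. Of these, 8 were past 1.5-fold as higher (6.67%, beside 4.69% of all genes) and 5 as lower (4.17%, beside 6.26%), with a median log2 ratio of 0.16. Srpk1, the kinase that phosphorylates SR proteins and sends them to the nucleus, read 851 and 2084, 2.45-fold higher, with 0.79 in its other probe set. Tnpo3, the import receptor for phosphorylated SR proteins, read 907 and 1442 (0.67), with 0.91 and 1.04 in its other probe sets. Both were thus higher in each of their probe sets, while the SR genes had a median of 0.07. Among these SR-related genes and kinases 7 of 12 read higher (58.3%, beside 47.0% of all genes). The lowest was the SR kinase Clk2 at -0.47.

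Among regulators of alternative splicing 17 of 31 read higher (54.8%, beside 47.0% of all genes). Sfpq, a paraspeckle protein, read 2339 and 5329, 2.28-fold higher, with 4 of 5 other probe sets also higher, and Tardbp, the UG-binding protein TDP-43, read 2529 and 1163, 2.18-fold lower, with 3 of 4 others also lower. Ewsr1 had 0.76, with 0.02 in its other probe set. Tia1, which promotes use of weak 5′ splice sites, had 0.69, with 4 of 4 other probe sets higher. Nova1, known from neurons, was lower with a bound of -0.76.

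Factors that recognise splice sites with U2 read higher in 13 of 15 genes (86.7%, beside 47.0% of all genes), with a median of 0.22. They ran from the SF3B subunit Phf5a at -0.37 to Luc7l3, a U1-associated protein, at 0.72. The other 2 Luc7l3 probe sets had -0.23 and 0.13. The PRP19 complex and its relatives, which activate the spliceosome, read higher in 13 of 15 (86.7%, beside 47.0% of all genes). Their median was 0.31, from Rbm22 at -0.56 to the cyclophilin Ppie, 1.81-fold higher in a single probe set. Tri-snRNP and catalytic-step genes read lower in 13 of 20 (65%, beside 53.0% of all genes), with a median of -0.07. Their values went from the helicase Ddx23, a bound of -0.61, to the U5 GTPase Eftud2 at 0.56 with 2 other probe sets below 0. Exon junction and export genes had a median of 0.11, from the helicase Ddx39b at -0.62 to the export adaptor Alyref at 0.60 with -0.22 in its other probe set. Genes of snRNP assembly had a median of 0.20 with 11 of 16 higher (68.8%, beside 47.0% of all genes). The lowest was Smn1, the core of the complex that loads Sm rings, at 624 and 364 (-0.78). Gemin5, its snRNA-binding partner, was the highest at 0.51.

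**Figure D3:**
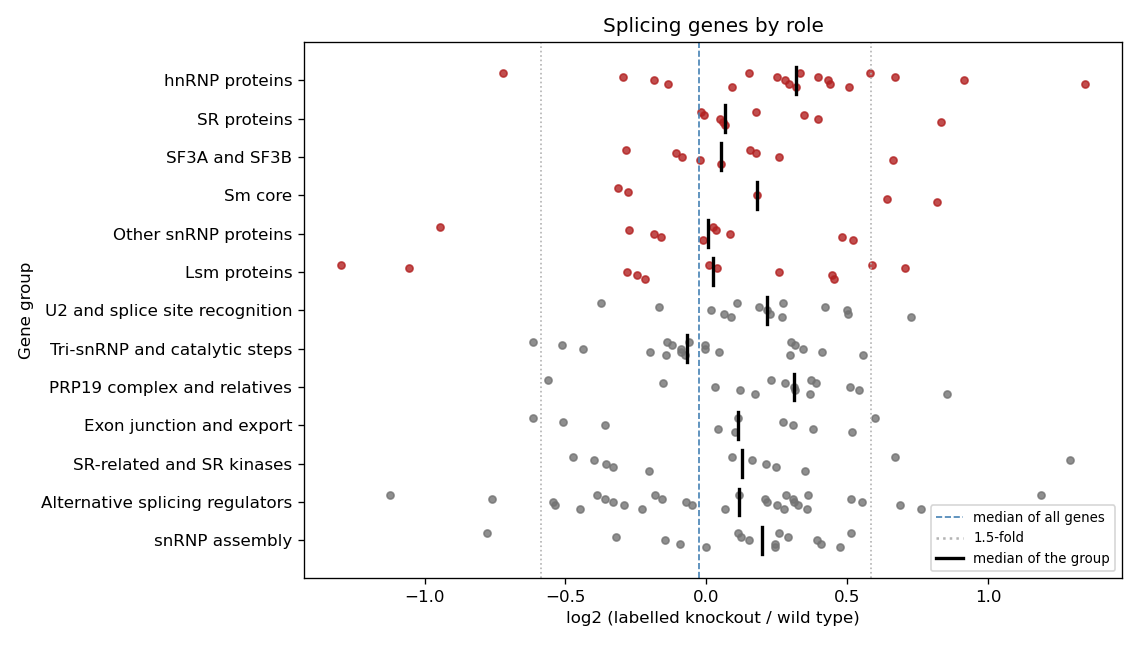
The log2 ratio (labelled knockout over wild type) of each gene above the floor in 13 groups, with the 6 role groups described here in red and the 7 other splicing lists in grey; black bars are group medians, dotted lines mark 1.5-fold and the dashed line is the median of all genes, -0.03. The hnRNP and PRP19 groups have medians of 0.32 and 0.31, and the tri-snRNP group has -0.07.

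Several measures of the samples moved with these differences, and their part in them was not tested. The 3' to 5' signal ratio of the Actb control probe sets, a guide to RNA integrity, was 1.25 in wild type and 1.65 in the other sample, and that of Gapdh was 0.714 and 0.847 in the same order. All 7 smooth muscle markers were lower on the array labelled knockout, with summed signals of 52036 and 38311, and all 7 fibroblast markers were lower, with 22203 and 18645. Of 7 adipocyte markers 5 had a probe set and 3 were above the floor, 2 of them higher and 1 lower, with a median of 0.62. Those 5 summed to 998 and 1640, while leukocyte markers summed to 4871 and 4294. Luminal markers of the gland were strong on both arrays, with Spink1 at 62610 and 64718 and Pbsn, probasin, at 34870 and 26812. Of 12 luminal markers listed 8 had a probe set, 5 of them lower and 3 higher, with summed signals of 193106 and 180717. All 4 seminal vesicle markers were below the floor. Of 3 markers of other prostate lobes, the 2 above the floor were lower, and the list summed to 1344 and 958. In whole tissue, fewer cells of a type and less RNA per cell cannot be told apart. Eaf2 itself read 691 and 702, and the labels do not say whether its probe set lies in the removed part, so every direction above rests on the labels.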

How the data were processed

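The deposited values were linear probe set intensities from 1 Affymetrix mouse array per sample, with 45101 probe sets, 2 arrays in all. Per the submitters' processing notes the authors used GCOS 1.4, with settings not given in the sources used here. Per the labels, 5 ug of total RNA was made into biotin-labelled cRNA. With 2% of probe sets trimmed at each end, both arrays had a mean of 500.0, which shows a single scaling per array.

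Gene names came from GEO's platform annotation, and only probe sets with 1 gene symbol were used, 178 for the 66 genes, of which 156 were above the floor. All 66 symbols were matched by Entrez ID to a gene table of GRCm38.p6. The floor was the 50th percentile of non-control intensities pooled over both arrays. Genes at or above it on at least 1 array were used, and a ratio with the other array below it is a bound. Thresholds were 1.5-fold and 2-fold. With 1 array per group no p-value or error between animals exists, and the number of arrays limits the precision. Every gene of the set is named, and in the other lists the genes past 1.5-fold and the highest and lowest.

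Alternatives were median centring, quantile normalization, loess (span 0.4), the floor moved to the 30th or 70th percentile or removed, 50 added to each signal, the median over probe sets, leaving out probe sets suffixed _s_at, _x_at or _a_at, and the probe set closest to 0. The genes, lists and alternatives were chosen with earlier results of these data known. Calculations used Python 3.11.15, pandas 2.3.3 and statsmodels 0.14.6 and were tested on simulated arrays.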

Additional observations from a re-analysis of the deposited data

How the results depend on the processing

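Across 10 alternatives, 120 of 140 summary values and 599 of 628 single gene values stayed within their spread (the SD per probe set over the root of the number of genes, or 1.5 times for counts). Many single gene values could not move, since 23 genes had 1 probe set above the floor and changes of floor left bright genes as they were. These counts therefore do not measure how firm the values are. The spread used is one between probe sets, not between animals. The cause of each shift below was not tested. The median log2 ratio of the 64 genes, 0.12, lay above 0 in all 10, at 0.079 under loess, 0.035 without suffixed probe sets and 0.049 with the probe set closest to 0. The hnRNP median, 0.32, was also above 0 in all 10, at 0.24, 0.15 and 0.090 under the same 3, and below the Sm median in the last 2. Without suffixed probe sets the Sm median was 0.64, over 3 genes, and that of the other snRNP proteins -0.16, over 7. The Lsm median was 0.14 with the median over probe sets. The count of genes at least 2-fold lower was 1 under quantile normalization (beside 0.602% of all genes), with the pseudocount (1.62%) and under a 70th percentile floor (0.312%). Under loess it was 2, with Snrnp70 at -1.01 in place of Lsm2 at -0.93. Genes at least 1.5-fold higher and lower numbered 4 and 2 with the median over probe sets (beside 2.75% and 5.36% of all genes), 3 and 2 with the probe set closest to 0 (2.19% and 4.58%) and 6 and 6 of 54 without suffixed probe sets (4.28% and 6.86%). Other splicing genes at least 1.5-fold higher numbered 5 with the median over probe sets and 3 with the probe set closest to 0, and those lower numbered 3 with the latter, beside the same shares of all genes, and 2 with the floor at the 70th percentile, beside 3.01%. Hnrnpab had 0.12 as the median over probe sets, Hnrnpd to -0.38 without suffixed probe sets and with the probe set closest to 0, and Snrnp70 to 0.13 with the latter. No paired analysis was possible because each group held 1 array.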

Other observations

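Probe sets annotated with several symbols entered no count, and 17 of them list a gene of these families. The 3 that list Hnrnpa1 beside pseudogenes read 1008 and 1388, 1792 and 2585, and 1162 and 1783 on the wild-type array and the array labelled knockout, log2 ratios of 0.46, 0.53 and 0.62, beside 0.51 and 0.20 in the Hnrnpa1 probe sets with a single symbol. All 5 probe sets therefore read higher on the array labelled knockout. The 4 that list Hnrnpa3, an hnRNP A/B protein, with a predicted gene had -0.23, 0.08, 0.24 and 0.26.

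Snrpn, below the floor in its probe set with a single symbol, shares 6 others with Snurf, the reading frame carried by the same imprinted transcript. Of these, 4 were above the floor. They read 3353 and 3783 (0.17), 1886 and 2231 (0.24), 1579 and 1090 (-0.53), and 995 and 423 (-1.24), so no direction was common to them. The Sm genes Snrpd1 and Snrpd2, each listed with a predicted gene, had 0.17 and -0.13, the U1 gene Snrpa had -0.20 and the ring gene Lsm5 -0.11.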
